A study of Mus musculus with 12 samples.

Results

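Gene expression was compared between cells kept in culture and cell suspensions prepared from the mouse brain, called fresh here. The comparison set all 6 cultured samples against all 6 fresh suspensions of one RNA-seq series, so all 12 samples of the series took part. Of 55862 genes in the deposited table of FPKM (fragments per kilobase of gene, scaled to library size), 16568 reached a mean of at least 1 FPKM in at least 1 group and were tested. A gene was called parted when its lowest value on one side lay above its highest value on the other, and the distance between those 2 values on the log2(FPKM + 1) scale was called its gap. By that definition 4393 genes, or 26.5% of those tested, parted the sides. Just inside the expression limit were Gm24950 and Ankrd53, with highest group means of 1.00013 and 1.00044 FPKM, and just outside were 2310016G11Rik and C230034O21Rik, with 0.9997 and 0.99969 FPKM.

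The study turned cortical astrocytes of the mouse into sphere-forming cells and set them beside preparations of neural precursor cells, with 3 samples in each of 4 groups. ASTs were astrocytes from the cortex of C57BL/6 pups of postnatal day 1 to 2, freed of meninges and grown as a monolayer in medium with serum. They served as the untreated control, at day 0 of sphere culture. A-iSCs were the same kind of cells after 5 days as floating spheres. P56-NPCs were the cells of an adult subependymal zone, dissociated at postnatal day 56, and P0-NPCs those of a newborn hippocampus, dissociated at postnatal day 0. P56-NPCs were passed through a strainer, both suspensions were spun down, and P56-NPCs were then taken up in warm medium with the B27 supplement, for a time that the sources used here do not give. The study's methods place both under primary culture but describe no step that sorted or expanded them, so other cells of the dissected tissue could be present. All 4 groups carried the strain C57BL/6 in their labels, while the study's methods named C57BL/6J for the fresh tissue. The study's methods speak of independent experiments in general, but the sources used here did not tie the sequenced samples of a group to separate animals or cultures, so the p-values measure only the spread between these samples, which may be technical. Culture, brain region, age and cell make-up all differed between the sides, and their contributions cannot be told apart. Because RNA came from bulk samples, fewer cells of a type and less RNA per cell cannot be told apart either.

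Each library held between 17077780 and 24452419 fragments, recovered from the FPKM values and gene lengths, and 12468 to 13994 genes reached 1 FPKM in each. A count of 3 fragments corresponded to 0.103 to 0.187 FPKM for a transcript of 1 kilobase. Transcripts of the mitochondrial genome made up 2.94% to 7.03% of the fragments in the cultured samples, 16.5% to 17.6% in P56-NPCs and 3.67% to 5.55% in P0-NPCs. Their part in the results below was not tested. The mean share was 4.40% ± 1.65 (SD, n = 6) in culture and 10.9% ± 6.79 (SD, n = 6) in fresh cells, a difference that an exact two-sided permutation test did not separate (p = 0.0628). That test ignored the 4 groups, so the distance between P56-NPCs and P0-NPCs counted as spread.

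Cells that settle on plastic spread out, build actin stress fibres and adhesions, and secrete matrix. Astrocytes raised in serum take on features of reactive astrocytes, among them vimentin and CD44, and microglia often survive in such cultures. Fresh tissue brings along neurons, oligodendrocytes, vessel walls, choroid plexus and blood, cell types that an adherent culture of astrocytes is not meant to hold. Interferons switch on a shared set of antiviral and antigen presentation genes through an element in their promoters, the interferon-stimulated response element, which is bound by factors that interferon signalling activates.

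Among the tested genes, 6233 (37.6%) were higher in the cultured cells and 6378 (38.5%) were lower, together 76.1%, by limma on log2(FPKM + 1) with 4 group means and an adjusted p under 0.05. Parting was rarer. It was met by 2128 genes (12.8%) that were higher in all 6 cultured samples and by 2265 genes (13.7%) that were higher in all 6 fresh samples. Another 8220 genes were called without parting the sides, and only 2 parted genes were not called. The median log2 difference over all tested genes was 0.0023. Scaling by library size alone moved that median to 0.102 and the parted genes to 2545 cultured-high and 1765 fresh-high. Each gene named below that turned direction when a whole group was left out had not parted.

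A gap of at least 1, which is a doubling of FPKM + 1 between the nearest samples, was left for 274 cultured-high genes (1.65%) and 441 fresh-high genes (2.66%). The fresh-high genes had the wider gaps, with a median of 0.404 against 0.292 on the log2(FPKM + 1) scale. Cultured-high parted genes were 93.5% protein-coding and 2.68% long non-coding, and fresh-high parted genes were 88.4% and 6.93%, beside 82.4% and 6.34% of all tested genes. Protein-coding genes of the cultured-high set had a median genomic span of 19149 bases and those of the fresh-high set 34349.5 bases, compared with 24848 bases over all tested protein-coding genes. The low side held at most 3 fragments in each sample for 50 of the cultured-high genes and 143 of the fresh-high genes.

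The groups within each side were themselves far apart. A-iSCs and ASTs differed in 9570 genes (57.8%), and P56-NPCs and P0-NPCs in 11362 genes (68.6%), at the same threshold. The sample that limited a gap came more often from the spheres. For the cultured-high genes, the lowest cultured sample was an A-iSC sample in 1520 (71.4%) and an AST sample in 608 (28.6%), while the highest fresh sample was from P56-NPCs in 1224 (57.5%). For the fresh-high genes, the highest cultured sample was an A-iSC sample in 1717 (75.8%). In each of the 4 pairs of a cultured with a fresh group, 1917 genes (11.6%) were called higher in culture and 2132 (12.9%) lower.

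**Figure D1:**
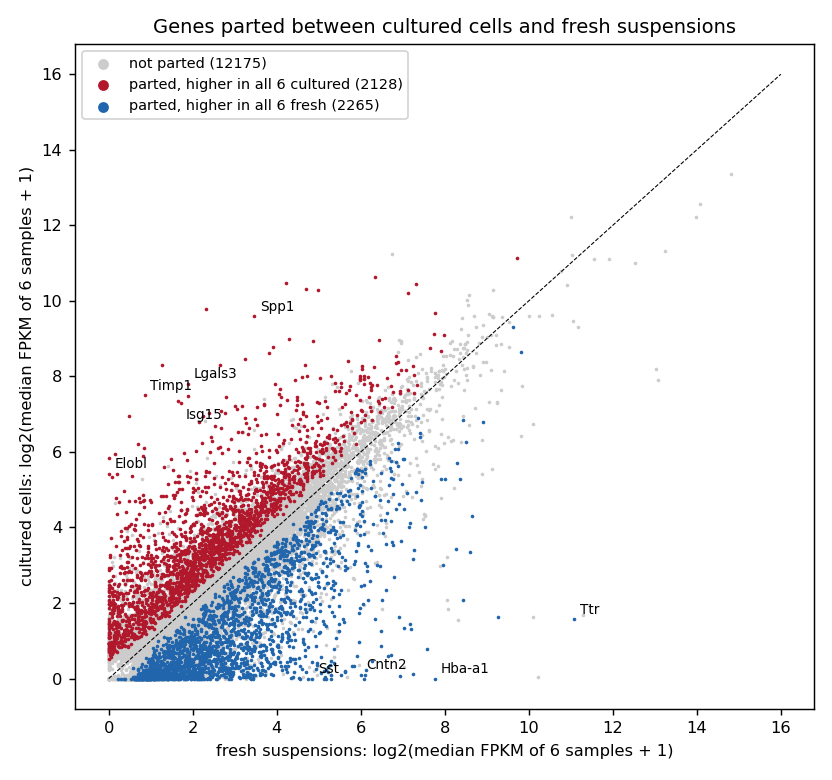
Each point is 1 of 16568 tested genes, placed by log2(median FPKM + 1) of the 6 fresh suspensions on the horizontal axis and of the 6 cultured samples on the vertical axis, with the dashed line marking equal medians. The 2128 cultured-high parted genes (red) lie above the line and the 2265 fresh-high parted genes (blue) below it. Among the labelled genes, Ttr is farthest from the line.

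The 12 protein-coding cultured-high genes with the largest gaps were Elobl, Bst2, Isg15, Lgals3, Npvf, Cd44, Timp1, Hspb8, Hmox1, Spp1, Ptgs2 and Lyz2. Their gaps ran from 4.49 for Elobl to 3.09 for Lyz2.

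Elobl, a gene that resembles the elongin B gene Elob, was at 33.6, 59.4 and 41.0 FPKM in ASTs and at 60.3, 42.7 and 21.5 FPKM in A-iSCs, and was listed at 0 in all 6 fresh samples. Against a floor of 3 fragments per fresh sample, it was at least 243-fold higher in culture (log2 difference 5.38 ± 0.21 SE, limma, adjusted p = 4.76e-10). Elob itself was detected throughout, with group means of 227 ± 79.8 FPKM in ASTs, 176 ± 63.3 in A-iSCs, 109.4 ± 6.46 in P56-NPCs and 109.4 ± 17.5 in P0-NPCs (SD, n = 3). How the authors' counting divided fragments between the like sequences is not stated, so the value of Elobl is uncertain.

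Cd44, the receptor for hyaluronan, had 104, 102 and 107 in ASTs and 34.5, 28.3 and 31.0 FPKM in A-iSCs. Fresh values were 0.425, 0.506 and 0.672 FPKM in P56-NPCs and 0.910, 0.999 and 1.31 FPKM in P0-NPCs. All cultured samples were far above all fresh ones, and ASTs also stood apart from A-iSCs (log2 difference between sides 5.03 ± 0.07 SE, limma, adjusted p = 5.35e-13).

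Timp1, an inhibitor of matrix metalloproteinases, was similar in its order, at 321, 423 and 309 in ASTs, 52.4, 38.4 and 34.2 FPKM in A-iSCs, 0.195, 0.140 and 0.274 FPKM in P56-NPCs and 2.02, 1.35 and 1.92 FPKM in P0-NPCs. The 4 groups did not overlap, and the sides differed by 6.06 ± 0.12 on the log2(FPKM + 1) scale (SE, limma, adjusted p = 3.12e-12). Lgals3, which encodes galectin-3, a lectin of phagocytes and damaged lysosomes, differed less between the cultures. It was at 191, 297 and 183 in ASTs and 318, 254 and 148 FPKM in A-iSCs, against 2.22 to 9.70 FPKM in the fresh samples, and the ranges of the cultured groups overlapped each other but not the fresh range.

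Npvf, the precursor of RFamide-related peptides that is best known from the hypothalamus, was measured at 47.5, 72.8 and 48.6 in ASTs and 31.5, 24.6 and 13 FPKM in A-iSCs. No fresh sample exceeded 0.0767 FPKM. The log2 difference was 5.10 ± 0.18 (SE, limma, adjusted p = 2.14e-10), with every cultured sample above every fresh one. Ptgs2, the inducible cyclooxygenase of prostaglandin synthesis, ranged from 9.85 to 24.7 FPKM in culture and from 0.0300 to 0.265 FPKM in fresh cells, again with no overlap.

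Spp1 and Lyz2 were led by the spheres. Spp1, the secreted phosphoprotein osteopontin, reached 1847, 1478 and 1242 FPKM in A-iSCs and 235, 307 and 268 FPKM in ASTs, beside 1.15, 1.06 and 1.81 FPKM in P56-NPCs and 19, 18.3 and 26.1 FPKM in P0-NPCs. Lyz2, the lysozyme of macrophages and microglia, was at 3672, 2724 and 2475 FPKM in A-iSCs and 301, 316 and 345 FPKM in ASTs, beside 9.13 to 34.5 FPKM in the fresh samples. In both cases ASTs lay between the spheres and the fresh groups (log2 difference 6.48 ± 0.13 SE for Spp1 and 5.73 ± 0.21 SE for Lyz2, limma, adjusted p = 3.99e-12 and 3.06e-10).

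Markers of homeostatic microglia, the resident phagocytes of the brain, moved with these phagocyte genes in part. The 20 microglial genes summed to 4294 to 5509 FPKM in A-iSCs, 398.9 to 471.5 FPKM in ASTs, 1346 to 1425 FPKM in P56-NPCs and 225.1 to 279.1 FPKM in P0-NPCs. Of the 20, 14 were called higher in culture and 6 lower, and none was cultured-high and parted. Defining markers went both ways, since C1qa, a complement component, had mean levels of 87.1 ± 14.1 FPKM in ASTs, 1029 ± 192 in A-iSCs, 213 ± 15.3 in P56-NPCs and 41.5 ± 0.855 in P0-NPCs, while P2ry12, the purinergic receptor of resting microglia, was at 0.670 ± 0.129, 7.30 ± 1.88, 60.2 ± 0.161 and 4.42 ± 1.05 FPKM (SD, n = 3). Siglech, a microglial lectin, was the 1 member that parted the sides, at 0 to 0.0733 FPKM in culture and 1.63 to 19.2 FPKM in fresh cells. The call of C1qa was lost in a limma model of the 2 sides without group means (adjusted p = 0.136). The part of microglial number in the phagocyte genes was not tested.

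**Figure D2:**
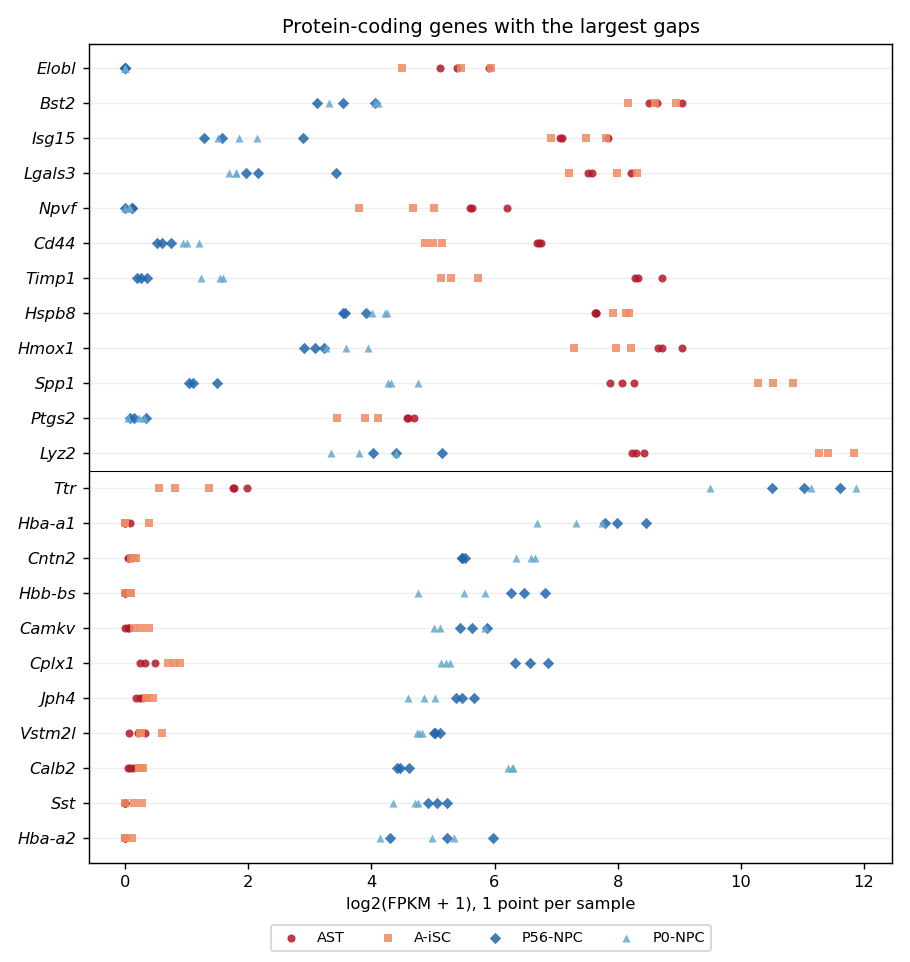
The protein-coding genes with the largest gaps in each direction that are named in the text, cultured-high above the line and fresh-high below it, with 1 point per sample at log2(FPKM + 1), marked by group. No point of a cultured group overlaps a point of a fresh group in any of the genes, and gaps run from 4.49 to 3.09 above the line and are widest below it for Ttr, at 7.52.

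Among the lists higher in culture, the largest share of parted members was in that of S100 proteins, annexins and membrane scaffold genes. That list also held Lgals1, Lgals3, Cd44 and Vim. All 20 tested members were called higher in culture and 19 parted the sides, beside 37.6% and 12.8% of all tested genes. The median log2 difference was 3.5, beside 0.0023 over all genes. Counts of the other lists are to be set beside the same shares, and beside 38.5% called lower and 13.7% parted fresh-high. S100a13 was called but did not part, and its call was lost in a limma model of the 2 sides without group means, in which the spread between groups counts as error (adjusted p = 0.142). The summed level was 9388 to 13710 FPKM in ASTs, 2146 to 3563 FPKM in A-iSCs, 364.1 to 450.6 FPKM in P56-NPCs and 367.7 to 449.7 FPKM in P0-NPCs, so that only the fresh groups overlapped.

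S100a11, which forms a complex with annexin A1, was at 1982, 3525 and 1993 in ASTs, 513, 401 and 181 FPKM in A-iSCs, 23.9, 16.7 and 32.1 FPKM in P56-NPCs and 29.2, 32.6 and 40.0 FPKM in P0-NPCs. Lgals1, the secreted lectin galectin-1, was at 2097, 3140.1 and 2054 in ASTs, 499, 408 and 291 FPKM in A-iSCs and at most 40.0 FPKM in fresh cells. Vim, the intermediate filament of immature and reactive astrocytes, was at 1926, 2724 and 1908 in ASTs, 1243, 1131 and 741 FPKM in A-iSCs, 41.7, 36.0 and 46.6 FPKM in P56-NPCs and 145, 114 and 168 FPKM in P0-NPCs. For these 3 genes, ASTs were above A-iSCs and A-iSCs above both fresh groups in every sample. The log2 differences between the sides were 4.95 ± 0.26 for S100a11, 5.32 ± 0.16 for Lgals1 and 4.26 ± 0.16 for Vim (SE, limma, adjusted p at most 6.27e-09).

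The promoter of S100a11 held the AP-1 motif TGANTCA, the site of Fos and Jun proteins, at 2 places. The 250 bases before its RefSeq start site in GRCm38.p6 are shown 5′ to 3′, with the motif in capitals, because it had the highest mean FPKM of this list in ASTs, although Lgals1 was above it in AST replicates 1 and 3.
S100a11, chr3:93520246-93520495, plus strand: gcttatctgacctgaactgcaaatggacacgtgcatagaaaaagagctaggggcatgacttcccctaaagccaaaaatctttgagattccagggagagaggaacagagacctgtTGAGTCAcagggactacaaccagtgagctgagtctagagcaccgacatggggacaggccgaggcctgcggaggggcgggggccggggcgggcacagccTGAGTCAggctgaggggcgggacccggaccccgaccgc
Counted from the start site, the motifs began at -136 and -38. Of 14477 promoters of 300 bases, 250 before and 50 after the start, belonging to 11302 tested genes, 5.47% held this motif on either strand. The share was 7.99% for cultured-high parted genes, 4.84% for fresh-high parted genes and 14.3% for cultured-high genes with a gap of at least 1. A match is a description of the letters and not evidence of binding.

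Interferon-stimulated and MHC class I genes were higher in culture without exception among those tested. All 20 were called and 17 parted the sides, beside 37.6% and 12.8% of all tested genes, with a median log2 difference of 2.71. H2-K1, Psmb9 and Rsad2 were called but did not part. The summed level was 2196 to 3124 FPKM in ASTs, 3509 to 5274 FPKM in A-iSCs, 381.9 to 569.3 FPKM in P56-NPCs and 139.7 to 177.5 FPKM in P0-NPCs, with no overlap between groups.

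Isg15, a ubiquitin-like protein induced by interferon, was at 136, 229 and 133 in ASTs and 223, 179 and 120.4 FPKM in A-iSCs. Its fresh values were 1.97, 1.42 and 6.39 FPKM in P56-NPCs and 3.42, 1.86 and 2.58 FPKM in P0-NPCs. The cultured groups overlapped each other, as did the fresh groups, but the sides did not (log2 difference 5.50 ± 0.27 SE, limma, adjusted p = 3.86e-09).

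Bst2, or tetherin, holds budding viruses at the cell surface. It was at 399, 531 and 365 in ASTs, 493, 391 and 286 FPKM in A-iSCs, 10.6, 7.66 and 15.7 FPKM in P56-NPCs and 15.7, 8.98 and 16.3 FPKM in P0-NPCs. The gap of 4.05 was again between overlapping cultured groups and overlapping fresh groups (log2 difference 4.96 ± 0.20 SE, limma, adjusted p = 7.14e-10). Usp18, the protease that removes ISG15 from proteins and dampens interferon signalling, ranged from 16.4 to 22.5 FPKM in culture and from 0.299 to 1.59 FPKM in fresh cells.

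B2m, the light chain of MHC class I, was abundant in all groups and still parted, at 848, 1184 and 859 in ASTs, 2482, 2136 and 1617 FPKM in A-iSCs, 234, 223 and 313 FPKM in P56-NPCs and 82.1, 73.4 and 90.8 FPKM in P0-NPCs. The 4 groups were ordered without overlap. Ifitm3, a membrane protein that blocks virus entry, was at 464, 757 and 468 in ASTs and 648, 514 and 305 FPKM in A-iSCs, against 18.3 to 45.3 FPKM in fresh samples. Here the 2 cultured groups overlapped. The differences were 3.27 ± 0.14 for B2m and 4.12 ± 0.22 for Ifitm3 (log2, SE, limma, adjusted p = 1.17e-09 and 6.86e-09).

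Microglia express many of these genes. The microglial sums given above were highest in A-iSCs, followed by P56-NPCs, ASTs and P0-NPCs. The part of microglia in the interferon levels of any group was not tested.

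**Figure D3:**
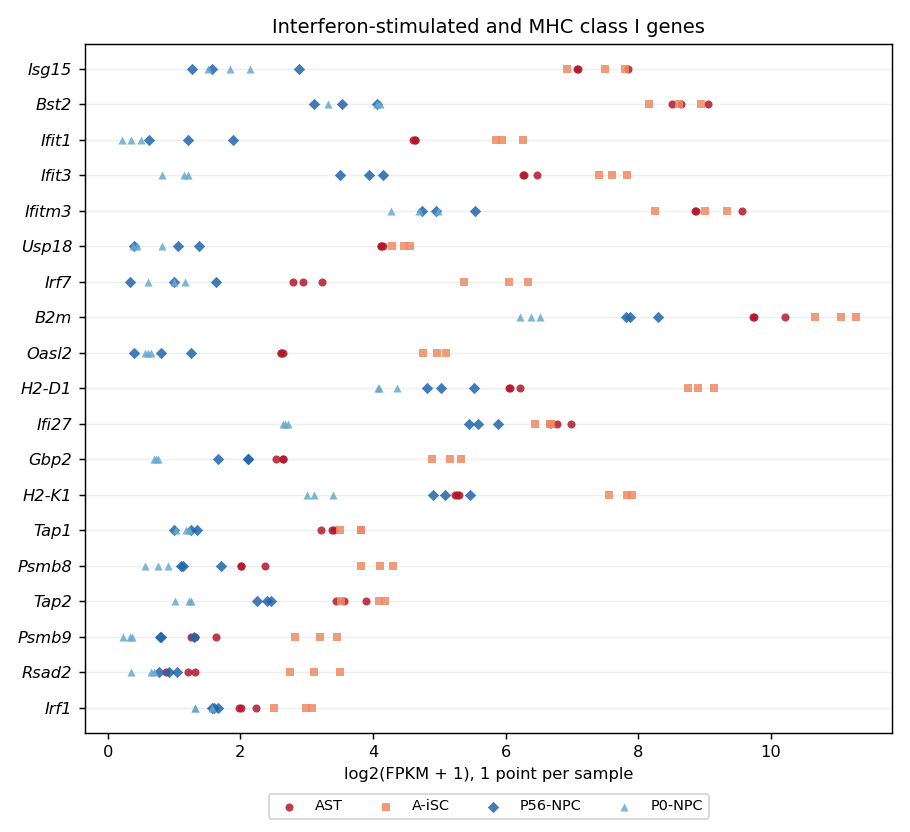
Of the 20 interferon-stimulated and MHC class I genes tested, 19 are shown, ordered by log2 difference, with 1 point per sample at log2(FPKM + 1), marked by group. Cultured points lie to the right of all fresh points for all but 3, and for H2-K1, Psmb9 and Rsad2 the sides overlap.

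The element TTTCNNTTTC, chosen as a short form of the interferon-stimulated response element after the values were seen, was searched on both strands of the same promoters. It was present in 8 of 18 promoters of the interferon list (44.4%), in 3.03% of all promoters, in 5.21% for cultured-high parted genes, in 2.35% for fresh-high parted genes and in 12.8% for cultured-high genes with a gap of at least 1. Promoters of 3 genes described above are printed as 250 bases before the RefSeq start site (GRCm38.p6, 5′ to 3′), with the element in capitals.
Isg15, chr4:156200819-156201068, minus strand: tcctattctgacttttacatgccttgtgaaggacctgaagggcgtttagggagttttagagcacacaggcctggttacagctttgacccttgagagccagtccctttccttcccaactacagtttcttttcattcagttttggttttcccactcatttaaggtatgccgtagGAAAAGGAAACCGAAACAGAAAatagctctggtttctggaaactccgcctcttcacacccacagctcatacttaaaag
Bst2, chr8:71537473-71537722, minus strand: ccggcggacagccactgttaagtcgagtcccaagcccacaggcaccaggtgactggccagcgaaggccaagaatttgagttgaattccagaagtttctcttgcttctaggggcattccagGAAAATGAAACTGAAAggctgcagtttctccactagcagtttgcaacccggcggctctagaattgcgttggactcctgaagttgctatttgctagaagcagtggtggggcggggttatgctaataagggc
B2m, chr2:122147437-122147686, plus strand: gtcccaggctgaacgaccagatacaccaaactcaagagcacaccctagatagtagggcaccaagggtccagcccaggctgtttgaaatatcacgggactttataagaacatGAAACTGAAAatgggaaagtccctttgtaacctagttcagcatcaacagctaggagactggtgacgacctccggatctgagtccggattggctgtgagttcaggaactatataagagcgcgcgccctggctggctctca
Overlapping copies began at -78, -72 and -66 in Isg15 and at -130 and -124 in Bst2, and a single copy began at -139 in B2m. All were read on the strand opposite to the letters searched. These matches describe the sequence and do not show that a factor was bound.

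Lysosomal genes were also higher in culture. Of 20 tested, 18 were called higher and 16 of these parted, beside 37.6% and 12.8% of all tested genes. The median log2 difference was 1.57, and the smallest gap was 0.002. Npc1 and Gaa were not called. Both were called higher without P56-NPCs (log2 difference 0.67 and 0.50, limma, adjusted p = 0.00442 and 0.000602). Both were called lower without P0-NPCs (-1.09 and -0.48, limma, adjusted p = 0.000219 and 0.000763). Sums were 2784 to 2792 FPKM in ASTs, 6038 to 7305 FPKM in A-iSCs, 2046 to 2055 FPKM in P56-NPCs and 886.5 to 934.2 FPKM in P0-NPCs. Ctsd, the lysosomal aspartic protease cathepsin D, was at 612, 677 and 639 in ASTs, 2392, 1839 and 1671 FPKM in A-iSCs, 203, 189.7 and 217 FPKM in P56-NPCs and 85.7, 75.8 and 88.1 FPKM in P0-NPCs. Each group was clear of the others, and the side difference was 3.10 ± 0.10 (log2, SE, limma, adjusted p = 1.06e-10). Grn, the growth factor-like lysosomal protein progranulin, had the largest gap of the list, at 99.2 to 327 FPKM in culture and 26.0 to 31.2 FPKM in fresh cells. Microglia are rich in lysosomal proteases as well, and the part of microglia in these sums was not tested.

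Genes of oxidative and protein stress followed. Among 19 metallothionein and antioxidant genes, 15 were called higher and 10 parted (median log2 difference 1.18), with Gstp1, a glutathione transferase, the 1 called lower, a call lost with library-size scaling (limma, adjusted p = 0.0631). By sum, P56-NPCs, at 3251 to 3665 FPKM, overlapped both cultures, at 2686 to 4625 FPKM, and P0-NPCs were lower, at 601 to 669.8 FPKM. Hmox1, which breaks down heme and is switched on by oxidative stress, was at 404, 526 and 423 in ASTs and 297, 251 and 155 FPKM in A-iSCs. It was at 7.47, 6.48 and 8.43 FPKM in P56-NPCs and 11.1, 8.57 and 14.3 FPKM in P0-NPCs. AST samples were highest and every fresh sample was below every cultured one, with a log2 difference of 4.98 ± 0.16 (SE, limma, adjusted p = 1.21e-10).

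Of 16 heat shock chaperone genes, 12 were called higher, 8 of them parted, and 1 was called lower, Hsph1 (median 0.90). The Hsph1 call (log2 difference -0.20, limma, adjusted p = 0.0487) was lost with library-size, upper-quartile and TMM scaling (adjusted p = 0.471, 0.163 and 0.0757), and without AST replicate 2, A-iSC replicate 1 or 2, P56-NPC replicate 1 or 3, or P0-NPC replicate 2 or 3 (limma, 0.0829 to 0.109). Hspb8, a small heat shock protein of chaperone-assisted autophagy, was uniform in ASTs at 199, 199 and 199.6 FPKM and was at 290.0, 282 and 242 FPKM in A-iSCs. The fresh samples had 10.6 to 18.0 FPKM, far below either culture (log2 difference 3.95 ± 0.08 SE, limma, adjusted p = 5.32e-12). Hspa8, the constitutive HSP70 chaperone, parted by a gap of only 0.10, at 331 to 781 FPKM in culture and 201 to 308 FPKM in fresh cells.

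Targets of p53 and inhibitors of the cell cycle were called higher in 19 of 20 cases and parted in 13, with a median log2 difference of 1.71. Sesn1, a p53-induced stress protein, was the 1 called lower, a call lost without ASTs (log2 difference -0.27, limma, adjusted p = 0.201). Cdkn1a, which encodes the CDK inhibitor p21, was at 238, 217 and 232 in ASTs, 75.2, 75.7 and 57.9 FPKM in A-iSCs, 10.7, 7.17 and 14.1 FPKM in P56-NPCs and 10.4, 8.30 and 10.6 FPKM in P0-NPCs. Fresh groups overlapped each other and the cultured groups did not. Fas, the death receptor, had 32.7, 37.2 and 29.9 in ASTs, 19.4, 18.0 and 17.2 FPKM in A-iSCs and 0.276 to 1.65 FPKM in fresh cells. The differences were 3.53 ± 0.14 for Cdkn1a and 3.89 ± 0.09 for Fas (log2, SE, limma, adjusted p = 4.59e-10 and 6.13e-12).

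Cell division genes gave a different picture. All 19 tested were called higher on the cultured side, with a median of 0.82, but none parted. Rrm2, the small subunit of ribonucleotide reductase, had 128, 125 and 125 FPKM in ASTs, while A-iSCs, at 6.93, 7.33 and 7.73 FPKM, were below P0-NPCs, at 17.6, 15 and 15.9 FPKM, and above P56-NPCs, at 4.84, 5.13 and 3.15 FPKM. For this gene the call on the side means came with the ASTs far above the other 3 groups. The whole list had that order too, with sums of 868.5 to 997.8 FPKM in ASTs, 183 to 211.9 FPKM in P0-NPCs, 127.2 to 130.9 FPKM in A-iSCs and 72.68 to 83.08 FPKM in P56-NPCs. Ccnd1, the D-type cyclin of entry into the cycle, was at 428 ± 92.5 FPKM in ASTs and at 12.3 ± 2.13, 10.4 ± 1.88 and 12.1 ± 0.264 FPKM in A-iSCs, P56-NPCs and P0-NPCs (SD, n = 3), the last 3 groups overlapping. Without group means, the limma calls of Rrm2 and Ccnd1 were lost (adjusted p = 0.113 and 0.0536).

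Genes of stress fibres, which anchor and tension spread cells, were called higher in 19 of 20 cases, parted in 11, and had a median log2 difference of 2.28. Srf, the factor that drives many of them, was not called. It was called higher without A-iSCs and lower without ASTs (log2 difference 0.715 and -0.53, limma, adjusted p = 5.1e-05 and 0.00105). The ASTs carried most of the level, with sums of 4392 to 5058 FPKM, against 414.9 to 505.8 FPKM in A-iSCs, 141.2 to 186.3 FPKM in P56-NPCs and 236.1 to 251.4 FPKM in P0-NPCs. Acta2, smooth muscle actin, was at 1742, 2113 and 1689.8 FPKM in ASTs but at 58.6, 40.9 and 25.5 FPKM in A-iSCs, with fresh samples at 1.77 to 14.1 FPKM. Spheres were thus closer to fresh cells than to ASTs for this gene, and still parted from them. Cnn2, a calponin of the actin network, was at 342, 369 and 324 in ASTs, 26.1, 26.9 and 23.3 FPKM in A-iSCs, 3.21, 3.17 and 3.36 FPKM in P56-NPCs and 9.03, 8.60 and 8.43 FPKM in P0-NPCs. Each group kept to its own range (log2 difference between sides 3.90 ± 0.06 SE, limma, adjusted p = 5.44e-13). The CArG box, the site of SRF, was found in 4 of 21 promoters of this list (19%) and in 1.30% of all promoters.

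Targets of YAP and TEAD, which respond to spreading and tension, were summed at 1936 to 2030 FPKM in ASTs, 244.2 to 326.6 in A-iSCs, 186.0 to 193.9 in P56-NPCs and 84.77 to 98.32 in P0-NPCs. Of 13 tested among 14, 12 were called higher and 1 lower, Tgfb2, with a median of 1.62. The Tgfb2 call was lost in the limma model without group means (adjusted p = 0.0804). Those that parted were Ccn1, Ccn2 and Ptpn14. Ccn1, a matricellular protein, was at 935, 966 and 895 in ASTs, 117, 106 and 53.5 FPKM in A-iSCs, 18.7, 14.6 and 21.0 FPKM in P56-NPCs and 23.0, 11.8 and 18.6 FPKM in P0-NPCs. Ccn2, connective tissue growth factor, was at 336, 318 and 305 in ASTs, 45.7, 47.2 and 26.1 FPKM in A-iSCs and 0.435 to 5.03 FPKM in fresh cells. The A-iSC samples lay between ASTs and the fresh samples for both (log2 difference 3.95 ± 0.20 SE and 5.16 ± 0.15 SE, limma, adjusted p = 5.04e-09 and 5.89e-11).

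The TEAD motif GGAATG was present, on either strand, in 8 of 12 promoters of this list (66.7%), beside 12.5% of all promoters, 14.2% for cultured-high parted genes, 12.7% for fresh-high parted genes and 12.8% for cultured-high genes with a gap of at least 1. The promoter of Ccn1 is printed as that of the parted gene with the highest level in the list, with the motif in capitals as read on the opposite strand (250 bases before the start site, GRCm38.p6, 5′ to 3′).
Ccn1, chr3:145649986-145650235, minus strand: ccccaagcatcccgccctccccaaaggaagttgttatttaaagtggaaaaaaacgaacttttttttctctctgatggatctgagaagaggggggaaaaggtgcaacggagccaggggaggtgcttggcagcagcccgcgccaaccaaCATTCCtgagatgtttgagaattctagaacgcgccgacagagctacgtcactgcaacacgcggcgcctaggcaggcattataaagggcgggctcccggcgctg
The motif began at -103. It describes the letters in this window alone.

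Matrix genes summed to 3859 to 4466 FPKM in ASTs, 552 to 649.9 in A-iSCs, 629 to 988.8 in P56-NPCs and 616 to 670.8 in P0-NPCs, so that A-iSCs overlapped both fresh groups. Of 20 tested, 15 were called higher and 3 lower (Col1a2, Col3a1 and Postn), beside 37.6% and 38.5% of all tested genes, with a median of 1.52. The 4 that parted, beside 12.8% of all tested genes, were Thbs1, Fn1, Col5a2 and Plod2. The call of Postn was lost with a pseudocount of 0.1 (log2 difference -0.12, limma, adjusted p = 0.616) and turned direction without a call in limma-voom (0.07, adjusted p = 0.796). That of Col3a1 was lost in limma-voom (adjusted p = 0.0929), and all 3 turned direction when P0-NPCs were left out and lost their call without group means (adjusted p = 0.365 for Col1a2, 0.252 for Col3a1 and 0.535 for Postn). Thbs1, the matricellular protein thrombospondin 1, was at 773, 604 and 792 in ASTs, 22.9, 18.7 and 15.3 FPKM in A-iSCs, 0.398, 0.390 and 0.640 FPKM in P56-NPCs and 2.69, 2.18 and 2.55 FPKM in P0-NPCs. ASTs exceeded A-iSCs by more than A-iSCs exceeded P0-NPCs (log2 difference between sides 5.72 ± 0.10 SE, limma, adjusted p = 1.92e-12). Among 20 integrin and focal adhesion genes, 16 were called higher, 8 parted, and Lims2, Ptk2 and Csrp1 were called lower (median 0.92). These 3 calls were lost in the limma model without group means (adjusted p = 0.409, 0.17 and 0.542). Lims2 and Csrp1 were called higher when P56-NPCs were left out (log2 difference 0.76 and 1.47, limma, adjusted p = 0.00513 and 0.00075), and Ptk2 stood at 0.06 without A-iSCs (0.43). The list's sum was 1193 to 1538 FPKM in ASTs, 427.8 to 575.1 in A-iSCs, 1027 to 1076 in P56-NPCs and 219.9 to 230.0 in P0-NPCs, with A-iSCs below P56-NPCs. Itga7, a laminin receptor subunit, had the largest gap of these, with 10.5 to 32.1 FPKM in culture and 0.996 to 3.32 FPKM in fresh cells, and Itgb1, the common beta subunit, was at 94.5 to 734 FPKM and 39.5 to 63.2 FPKM.

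Cytokine and inflammatory genes were called higher in 16 of 19 cases and parted in 7 (median 1.18), with the chemokine Cxcl12 and the alarmin Il33 called lower. Both of these calls were lost in the limma model without group means (adjusted p = 0.633 and 0.353). Il33 was higher in culture when P56-NPCs were left out (log2 difference 1.5, limma, adjusted p = 6.24e-06), as was Cxcl12 without A-iSCs or without P0-NPCs (1.04 and 0.94, adjusted p = 5.43e-06 and 3.53e-05). Their sum was 367.1 to 519.8 FPKM in A-iSCs, and ASTs, at 176.1 to 181.1, lay inside the range of P56-NPCs, at 174.8 to 220.8 FPKM. Immediate early genes, which answer within minutes to dissociation as well as to growth factors, were called higher in 14 of 19 cases and lower in 3, Jund, Egr3 and Arc (median 0.84). Ier3, a stress-induced survival gene, had the largest gap of that list, at 96.4, 97.1 and 92.0 in ASTs, 67.7, 72.9 and 47.3 FPKM in A-iSCs and 3.22 to 5.09 FPKM in fresh cells. Of the 19 immediate early genes, 6 were cultured-high and parted, beside 12.8% of all tested genes, and Jund, an AP-1 subunit, was the 1 that was fresh-high and parted. The call of Egr3 was lost in the limma model without group means (adjusted p = 0.0955). That of Arc was lost when P56-NPCs were left out (log2 difference -0.33, limma, adjusted p = 0.0631).

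Most genes of the amino acid response were called higher, but not all. Among 20 targets of ATF4 and relatives, 12 were called higher and 5 lower, beside 37.6% and 38.5% of all tested genes. Of these, 6 and 1 parted, beside 12.8% and 13.7%, and the median was 0.52. Sesn2, a leucine sensor of the mTOR pathway, was at 14.5 to 28.5 FPKM in culture and 2.60 to 4.14 FPKM in fresh cells. Ddit4, an inhibitor of mTOR that is induced by hypoxia and glucocorticoids, went the other way and parted too, at 37.1, 52.5 and 35.7 in ASTs, 40.1, 52.0 and 48.6 FPKM in A-iSCs, 151, 132 and 155 FPKM in P56-NPCs and 75.3, 60.7 and 70.0 FPKM in P0-NPCs. The cultured groups overlapped and the fresh groups did not (log2 difference -1.17 ± 0.11 SE, limma, adjusted p = 1.19e-06). The cyclic AMP response element TGACGTCA was found in 2.78% of promoters of cultured-high parted genes, 2.71% of those of fresh-high parted genes and 2.85% of all promoters.

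Glycolysis and hypoxia genes were called higher in 15 of 22 cases and lower in 3, Hk1, Pfkm and Pdk1, and 7 parted (median 0.81). All 3 lower calls were lost in the limma model without group means (adjusted p = 0.324, 0.0569 and 0.234). Hk2, the inducible hexokinase, was at 8.54 to 19.3 FPKM in culture and 2.07 to 2.97 FPKM in fresh cells and parted, while Hk1, the form of mature brain, was called lower by 0.25 on the log2 scale (limma, adjusted p = 0.0208). The Hk1 call was lost with library-size scaling (adjusted p = 0.218) and upper-quartile scaling (0.0686), and without A-iSC replicate 1, P56-NPC replicate 2 or P0-NPC replicate 2 (limma, 0.0516 to 0.0543). Gapdh was uneven among replicates, at 41.3, 2.73 and 54.5 in ASTs and 53.9, 70.8 and 1.99 FPKM in A-iSCs, beside 0.984 to 1.77 FPKM in fresh cells. It has near-identical processed pseudogenes, and its level here is uncertain. Of 19 cholesterol synthesis genes, 7 were called higher and 7 lower, near the 37.6% and 38.5% of all tested genes, with a median of 0.03.

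The 12 protein-coding fresh-high genes with the largest gaps included Ttr, Hba-a1, Cntn2, Hbb-bs, Camkv, Cplx1, Jph4, Vstm2l, Calb2, Sst and Hba-a2. Gaps ran from 7.52 for Ttr to 4.03 for Hba-a2.

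Ttr, the thyroid hormone carrier secreted by the choroid plexus, was at 2077, 1452 and 3119.7 FPKM in P56-NPCs and 3747, 725 and 2265 FPKM in P0-NPCs. In culture it was at 2.41, 2.37 and 2.95 in ASTs and 0.460, 1.56 and 0.755 FPKM in A-iSCs. Fresh samples differed among themselves by several fold and were still all above the cultured ones by a wide margin (log2 difference -9.57 ± 0.34 SE, limma, adjusted p = 2.44e-10).

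All 9 genes of the choroid plexus list were called lower in culture and parted, with a median of -2.38, beside 38.5% and 13.7% of all tested genes. The sum was 1509 to 3206 FPKM in P56-NPCs and 758.7 to 3889 FPKM in P0-NPCs, but 8.723 to 10.24 in ASTs and 5.766 to 6.706 FPKM in A-iSCs. Ttr made up most of it. Folr1, the folate receptor of the same epithelium, was at 5.05 to 20.4 FPKM in fresh cells and at 0.915 to 2.28 FPKM in culture. Replicates moved together, since P0-NPC replicate 2 was the lowest fresh sample for both genes and for Clic6, a chloride channel protein with 28.0, 5.88 and 15 FPKM in the 3 P0-NPC samples and at most 0.0762 FPKM in culture.

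Hba-a1, an alpha-globin gene, was at 253, 220.1 and 353 FPKM in P56-NPCs and 159, 102 and 215 FPKM in P0-NPCs. It was at 0 in 4 cultured samples, at 0.0607 FPKM in AST replicate 2 and at 0.305 FPKM in A-iSC replicate 1 (log2 difference -7.59 ± 0.17 SE, limma, adjusted p = 6.80e-12). The 5 tested genes of the red blood cell list of 7 were all called lower and parted. They summed to 162.8 to 565.2 FPKM in fresh samples and to at most 0.575 FPKM in culture. The alpha-globin genes are near-identical copies, and how fragments were divided between Hba-a1 and Hba-a2 is uncertain.

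Of 20 pan-neuronal genes, 18 were called lower in culture and 15 of them parted, with a median of -2.48, while Thy1 and Uchl1 were called higher. Those calls were weak (log2 difference 0.27 and 0.33, limma, adjusted p = 0.0278 and 0.0462). The Thy1 call was lost without AST replicate 2, A-iSC replicate 1, P56-NPC replicate 1 or 3, or P0-NPC replicate 1 or 2 (limma, adjusted p = 0.0518 to 0.072). The Uchl1 call was lost without any of these or A-iSC replicate 2 (limma, adjusted p = 0.0642 to 0.109), and with a replicate block (0.0535). Of 20 transmitter receptor and synapse genes, 19 were called lower and 18 parted (median -2.24). Of 18 voltage-gated channel genes, 16 were called lower and 12 parted (median -1.25).

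Cntn2, an axonal adhesion molecule of the contactin family, was at 44.9, 43.6 and 43.3 FPKM in P56-NPCs and 100.3, 80.7 and 95.4 FPKM in P0-NPCs. No cultured sample exceeded 0.127 FPKM (log2 difference -5.91 ± 0.06 SE, limma, adjusted p = 2.84e-14). Camkv, a kinase-like protein of dendritic spines, was at 48.7, 57.8 and 42.4 FPKM in P56-NPCs and 33.6, 56.7 and 31.4 FPKM in P0-NPCs, with overlap between the fresh groups and at most 0.302 FPKM in culture.

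Sst, the neuropeptide somatostatin of inhibitory interneurons, was at 29.4, 36.6 and 32.4 FPKM in P56-NPCs, at 19.3, 25.2 and 26.1 FPKM in P0-NPCs and at 0 in 4 of 6 cultured samples. Calb2, the calcium buffer calretinin, was higher in the newborn hippocampus, at 73.3, 76.8 and 77.7 FPKM, than in the adult subependymal zone, at 20.4, 23.4 and 21.2 FPKM, and was at most 0.217 FPKM in culture. Cplx1, the complexin of fast transmitter release, had the reverse order, with 94.4, 116 and 79.8 FPKM in P56-NPCs and 34.2, 37.8 and 35.9 FPKM in P0-NPCs. It was at 0.180 to 0.861 FPKM in culture. Adult and newborn tissue therefore changed places between these 2 genes while both stayed above the cultures.

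Snap25, a SNARE protein of synaptic vesicle fusion, was at 34.4, 36.3 and 30.4 FPKM in P56-NPCs, 13.6, 16 and 14.9 FPKM in P0-NPCs, 0.577, 0.328 and 0.269 FPKM in A-iSCs and 0.0966, 0.0581 and 0.119 FPKM in ASTs. Spheres were low but above ASTs in every sample. One synaptic gene went against its list and parted, Gria3, a subunit of AMPA receptors, at 17.7, 13.1 and 16.8 in ASTs, 3.84, 3.60 and 5.01 FPKM in A-iSCs and 1.96 to 2.98 FPKM in fresh cells. AST samples were highest and the gap to the A-iSC samples from the fresh ones was 0.21 (log2 difference 1.48 ± 0.10 SE, limma, adjusted p = 5.41e-08).

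The neuronal genes Tubb3 and Stmn3 were not near 0 in culture. Tubb3, the neuronal beta-tubulin, was at 36.0, 51.3 and 34.7 in ASTs and 46.3, 40.0 and 27.3 FPKM in A-iSCs, beside 75.4, 85 and 69.9 FPKM in P56-NPCs and 608, 566 and 728 FPKM in P0-NPCs. Cultures overlapped each other and parted from the fresh samples by 0.44. Stmn3, a stathmin that destabilises microtubules, was at 6.77 to 23.3 FPKM in culture and 108 to 275 FPKM in fresh cells. The pan-neuronal sum was 379.4 to 523.1 FPKM in ASTs, 281.9 to 375 FPKM in A-iSCs, 761.7 to 942.9 FPKM in P56-NPCs and 1595 to 1940 FPKM in P0-NPCs, a smaller contrast than for single synaptic genes. Of 20 immature neuron genes, 17 were called lower and 9 parted (median -1.77), with A-iSC sums of 303.5 to 398.4 FPKM around the 369.5 to 378.4 FPKM of P56-NPCs, and P0-NPCs at 1603 to 2064 FPKM.

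All 16 myelin and oligodendrocyte genes were called lower (median -3.56). The 3 that parted, Mog, Cldn11 and Enpp2, are a share near the 13.7% of all tested genes. The sum was 13110 to 15180 FPKM in P56-NPCs, 212.3 to 228.7 FPKM in A-iSCs, 67.07 to 75.66 FPKM in P0-NPCs and 26.95 to 29.10 FPKM in ASTs, so that spheres were above the newborn hippocampus. Mbp, myelin basic protein, was at 4994, 5159 and 5659.7 FPKM in P56-NPCs, 4.08, 4.45 and 4.16 FPKM in A-iSCs, 1.70, 1.95 and 1.92 FPKM in P0-NPCs and 0.282, 0.291 and 0.311 FPKM in ASTs. Its side difference of -5.56 ± 0.05 (log2, SE, limma, adjusted p = 2.84e-14) came with the adult tissue alone above both cultures, and the call was lost in a limma model of the 2 sides without group means (adjusted p = 0.0592). Both suspensions labelled as precursor cells held RNA of globin and synaptic genes, as given above, and myelin genes were far more abundant in P56-NPCs than in P0-NPCs.

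Of 14 oligodendrocyte precursor genes, 11 were called lower (median -1.17), Pdgfra and Cacng4 parted, and C1ql1 was called higher, a call lost in the limma model without group means (adjusted p = 0.352). The 2 parted are a share close to the 13.7% of all tested genes. The sum was high in P56-NPCs alone, at 1185 to 1231 FPKM, since P0-NPCs, at 122 to 160.6 FPKM, overlapped ASTs, at 122.4 to 144.2, and lay below A-iSCs, at 287 to 309.9 FPKM. Endothelial genes were called lower in 13 of 16 cases (median -0.82), and the parted ones were Cldn5, Pecam1, Emcn and Tie1. Emcn parted by only 0.05, and Tie1 had up to 3 fragments in culture and 6 in its lowest fresh sample. Here P0-NPCs alone stood out, with a sum of 145.8 to 159.7 FPKM, while P56-NPCs, at 19.61 to 32.01 FPKM, overlapped the cultured range of 12.35 to 30.93 FPKM. Cldn5, the tight junction claudin of brain vessels, was at 49.6, 53.4 and 49.4 FPKM in P0-NPCs, at 1.71, 2.11 and 2.14 FPKM in P56-NPCs, and at 0 in culture except for 0.175 FPKM in A-iSC replicate 1. Mural genes were called lower in 8 of 10 cases (median -0.93), and the parted ones were Vtn, Rgs5, Abcc9 and Higd1b. Higd1b had 2 fragments in its lowest fresh sample and 1 in its highest cultured sample, so its parting is within counting error, and Abcc9 had up to 3 fragments in culture and 9 in its lowest fresh sample. The mural sum was likewise high in P0-NPCs alone, at 132.1 to 149.2 FPKM, with P56-NPCs at 19.51 to 22.65 FPKM and ASTs at 16.18 to 22.4 FPKM overlapping. All 14 ependymal genes were called lower and 7 parted (median -1.54). Foxj1, the factor of motile cilia, parted by only 0.06, at 39.9 to 52.2 FPKM in culture and 54.4 to 68.3 FPKM in fresh cells.

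Fibroblast and meningeal genes were divided, with 6 of 16 tested called higher and 9 lower, beside 37.6% and 38.5% of all tested genes (median -0.74). Of the 16, 6 were fresh-high and parted, beside 13.7% of all tested genes. Ptgds, the prostaglandin D synthase of meninges and choroid plexus, was at 620.2, 530.0 and 708 FPKM in P56-NPCs, 149, 249 and 167 FPKM in P0-NPCs, 16, 19.3 and 18.1 FPKM in A-iSCs and 2.03, 2.39 and 1.37 FPKM in ASTs. The 4 groups kept apart (log2 difference -5.52 ± 0.14 SE, limma, adjusted p = 1.33e-11). Prrx1, a mesenchymal transcription factor, was the 1 member that was cultured-high and parted, and Foxc1, Ccn3, Islr, Twist1 and Ogn were called higher without parting. The calls of Foxc1, Ccn3 and Ogn were lost in the limma model without group means (adjusted p = 0.361, 0.442 and 0.17).

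Astrocyte homeostasis genes, which mark mature astrocytes, were called lower in 15 of 20 cases and higher in 2, Aqp4 and Aldh1l1 (median -1.36). Those higher calls were lost in the limma model without group means (adjusted p = 0.143 and 0.185), and the log2 differences were -0.24 and -0.11 when P0-NPCs were left out. Only Gjb6, the gap junction protein connexin 30, parted, at 113, 124 and 105 FPKM in P56-NPCs, 2.29, 3.24 and 2.01 FPKM in P0-NPCs, 0.501, 1.20 and 1.27 FPKM in A-iSCs and 0, 0 and 0.0201 FPKM in ASTs. The sum of the list was 351 to 380.4 in ASTs and 495.9 to 598 FPKM in P0-NPCs, and reached 1456 to 2307 FPKM in A-iSCs and 7199 to 8144 FPKM in P56-NPCs. Cells labelled astrocytes thus had the lowest summed level of these markers, with Gjb6 at or near 0.

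**Figure D4:**
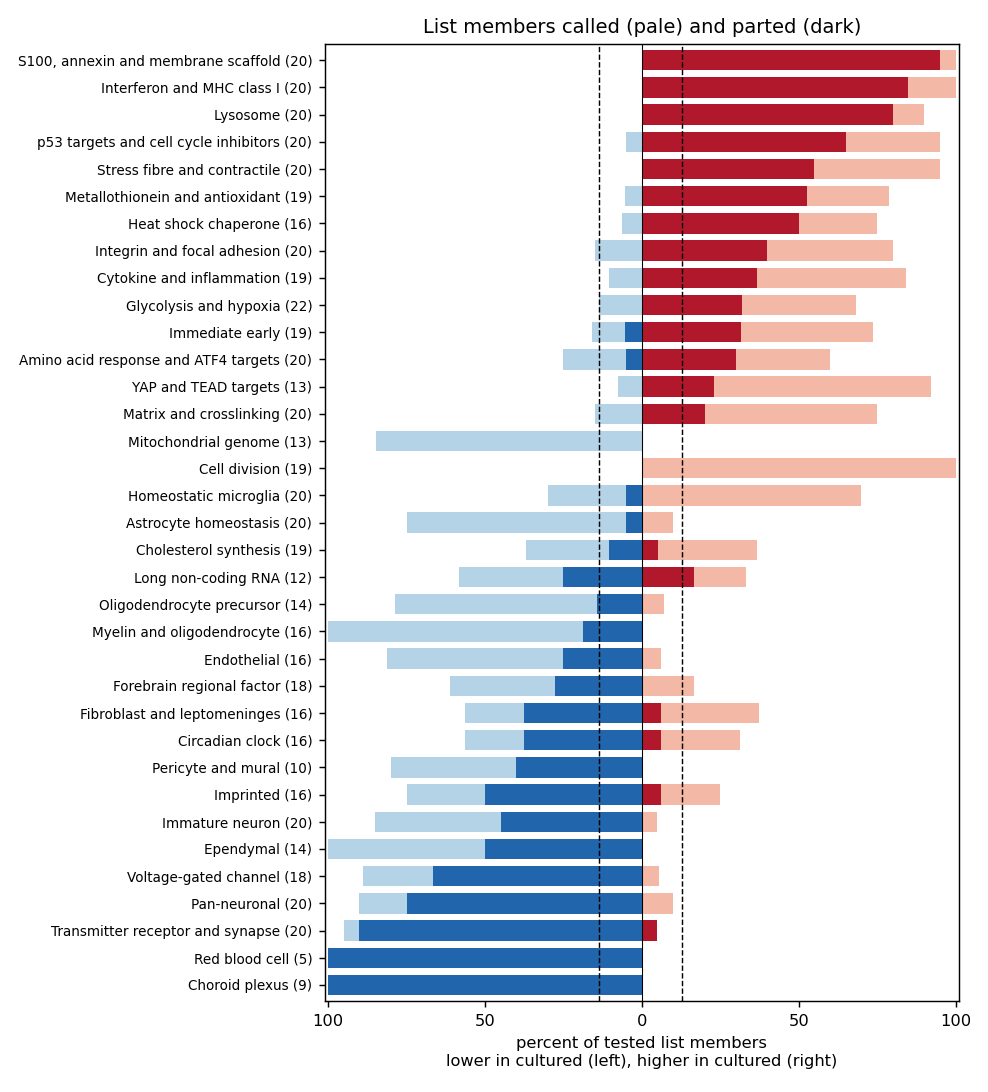
For each gene list, with the number of tested members in brackets, the bar to the right gives the percent of members higher in culture and the bar to the left the percent lower, pale for called and dark for parted. Dashed lines mark the 12.8% and 13.7% of all tested genes that parted. The S100, annexin and membrane scaffold list (19 of 20) lies at one end. Choroid plexus (9 of 9) and red blood cell genes (5 of 5) lie at the other.

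**Figure D5:**
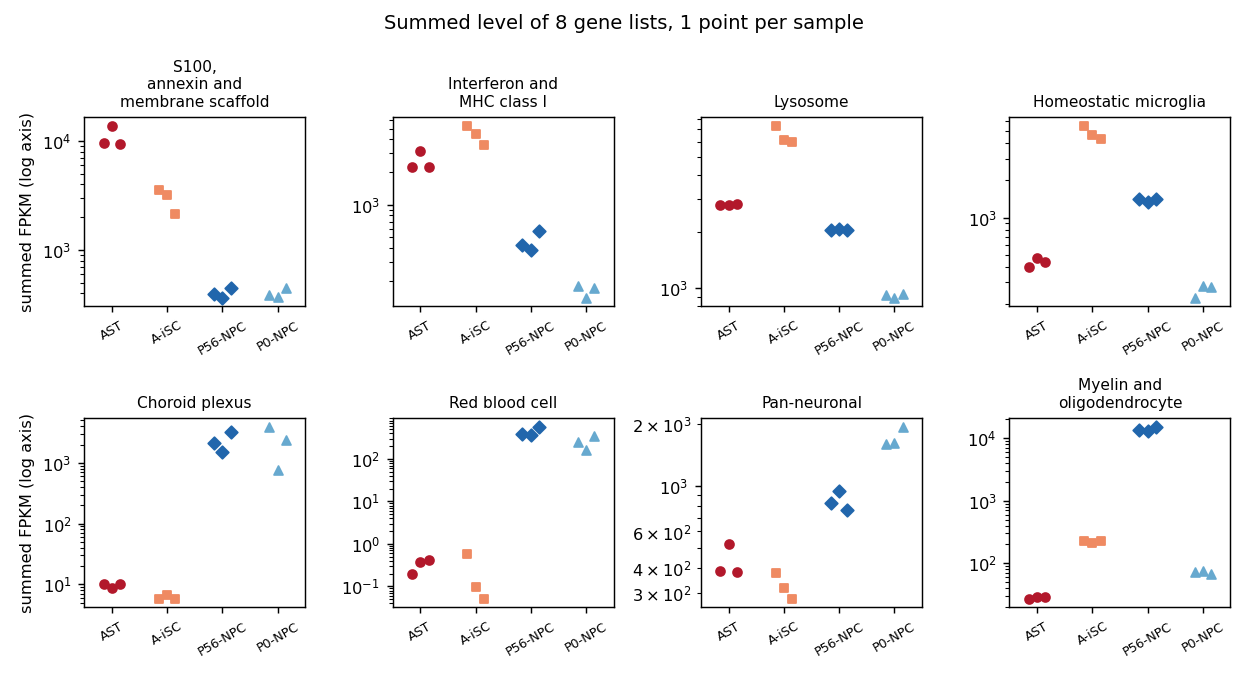
Summed FPKM of 8 gene lists on a log axis, with 1 point per sample and groups along the horizontal axis. The S100, interferon and lysosome sums are higher in all 6 cultured samples, the choroid plexus, red blood cell and pan-neuronal sums are higher in all 6 fresh samples, and for microglia and myelin the groups of the sides interleave.

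Of 13 genes of the mitochondrial genome, 11 were called lower in culture and none parted (median -1.29). P56-NPCs alone had a higher sum, at 136800 to 155800 FPKM, while P0-NPCs, at 23470 to 37900 FPKM, lay inside the cultured range of 20570 to 50150 FPKM. Of 16 clock genes, 5 were called higher and 9 lower (median -0.55), and 6 were fresh-high and parted, beside 13.7% of all tested genes. Per1, a repressor of the clock that also responds to acute signals, was at 4.87, 5.00 and 5.04 in ASTs, 4.43, 5.12 and 3.19 FPKM in A-iSCs, 18.7, 16.6 and 20.6 FPKM in P56-NPCs and 28.6, 31.3 and 31.9 FPKM in P0-NPCs. The cultures overlapped and both fresh tissues were above them (log2 difference -2.16 ± 0.09 SE, limma, adjusted p = 8.89e-10). Bhlhe40, a repressor of the same loop, was the 1 clock gene that was cultured-high and parted, by 0.03. The time of day of collection was not given in the sources used here.

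Of 16 tested imprinted genes, 12 were called lower and 4 higher, beside 38.5% and 37.6% of all tested genes (median -0.71). Of the 16, 8 were fresh-high and parted and 1 was cultured-high and parted, beside 13.7% and 12.8%. Nnat, the brain proteolipid neuronatin, was at 12.8, 15.5 and 15.1 FPKM in ASTs but 204, 272 and 336 FPKM in A-iSCs, beside 387 to 577 FPKM in fresh cells, so that it parted by 0.21 with the spheres close to the fresh range. Peg10, a gene derived from a retrotransposon, was cultured-high and parted by 0.03. Of 18 forebrain regional factors, 11 were called lower and 3 higher, beside 38.5% and 37.6% of all tested genes (median -0.46). The parted ones were Emx1, Emx2, Zic1, Prox1 and Dlx1, all fresh-high. Zic1, a factor of dorsal neural and meningeal cells, was at 4.23 to 5.48 FPKM in culture and 24 to 42.9 FPKM in fresh cells.

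Among 12 tested long non-coding RNAs of the fixed list, 7 were called lower and 4 higher, beside 38.5% and 37.6% of all tested genes (median -0.42). Of the 12, 3 were fresh-high and parted and 2 were cultured-high and parted, beside 13.7% and 12.8%. Snhg11, a host of small nucleolar RNAs with neuronal expression, was at 3.12 to 21.6 FPKM in fresh cells and at most 0.181 FPKM in culture. Malat1, an abundant nuclear RNA, was the member not called, with group means of 35.7 ± 5.01 FPKM in ASTs, 89.9 ± 20.5 in A-iSCs, 64.7 ± 3.76 in P56-NPCs and 60.0 ± 12.5 in P0-NPCs (SD, n = 3). Its log2 difference was -0.14 ± 0.13 (SE, limma, adjusted p = 0.355).

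Some genes parted the sides with no call between the groups within either side. There were 370 such cultured-high genes (2.23% of those tested) and 358 fresh-high genes (2.16%). The 6 protein-coding ones with the largest gaps were Elobl, Bst2, Isg15, Lgals3, Cd109 and Usp18 in culture and Ttr, Camkv, Hba-a2, Clstn3, Clic6 and Atp2b3 in fresh cells. Cd109, a coreceptor that dampens TGF-beta signalling, was at 50, 31.0 and 53.1 in ASTs, 26.5, 24.9 and 50.5 FPKM in A-iSCs, 1.98, 2.18 and 2.16 FPKM in P56-NPCs and 2.74, 2.03 and 2.37 FPKM in P0-NPCs. Overlap was thus within sides only (log2 difference 3.57 ± 0.18 SE, limma, adjusted p = 3.84e-09).

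Clstn3, the synaptic adhesion protein calsyntenin 3, was at 8.93, 11.1 and 7.49 FPKM in P56-NPCs, 9.63, 12.2 and 9.90 FPKM in P0-NPCs and 0.0756 to 0.271 FPKM in culture. Atp2b3, a calcium pump of the neuronal plasma membrane, was at 5.15, 4.95 and 5.92 FPKM in P56-NPCs, 8.59, 5.64 and 6.23 FPKM in P0-NPCs and at most 0.0371 FPKM in culture. The adult subependymal zone and the newborn hippocampus overlapped for both genes.

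Outside the protein-coding class, the largest cultured-high gaps belonged to the pseudogenes Gm6548, Cd63-ps and Gm5424. Pseudogenes share sequence with their parent genes, so their values are uncertain. The largest fresh-high gaps belonged to Mir1968, a short gene with 6 to 14 fragments in fresh samples and at most 1 in culture, Prox1os, which is transcribed opposite to Prox1, and Ighm, the immunoglobulin heavy constant gene of B cells. Prox1os was at 4.87, 4.74 and 5.21 FPKM in P56-NPCs, 4.91, 5.56 and 7.15 FPKM in P0-NPCs and 0.119 to 0.720 FPKM in culture, and its reads cannot be told from those of the partner gene without strand. Ighm was at 10.1, 9.48 and 8.95 FPKM in P56-NPCs, 2.73, 4.39 and 4.0 FPKM in P0-NPCs and at most 0.138 FPKM in culture.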

How the data were processed

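RNA was measured by paired-end sequencing of total RNA with a kit that is not stated to keep strand. The deposited table gave 1 FPKM value per gene and sample. The file names no unit, and FPKM was inferred because, per the file headers, it lists gene lengths, and 100% of the values times length were whole multiples of 1 step per sample, within 0.01. The authors had scaled the libraries, by 0.744 to 1.22 times their fragments. The submitters' processing notes list Bowtie 0.12.2 and the mm8 build, but gene positions in the table were those of GRCm38 for 54985 of 55240 shared identifiers. Reads with adapters or low quality had been removed before.

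Fragments were recovered from value and length for depth, floors and alternatives. The test was limma 3.58.1 in R 4.3.3 with a variance trend on log2(FPKM + 1), so that differences of low genes are understated, with 4 group means, the mean of ASTs and A-iSCs against that of P56-NPCs and P0-NPCs, and Benjamini-Hochberg adjustment over 16568 genes. It was run first on simulated data, which held no difference between the groups within a side, unlike these data. Python 3.11.15, pandas 2.3.3, numpy 2.4.6, scipy 1.17.1 and matplotlib 3.10.9 did the rest. Floors and fragment counts cover counting error only.

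Genes were named by rule. The rule took 12 protein-coding genes per direction with the largest gap, 6 such genes called in neither comparison within a side, 3 genes outside that class, and from each list its 3 most abundant members, those with the largest gap and those called against most of the list. Genes outside the rule are the 32 of 143 tested genes in the text that were chosen after their values were seen: Elob, Gapdh, those in the closing observations and most members behind a count of 5 or fewer. The comparison, the members and the lists were chosen with earlier results of these data known. Lists are described by counts and medians, since no set test was run. Promoter sequences are from RefSeq (GRCm38.p6), which held 11302 of the tested genes by symbol. Some genes that the rule or the lists hold are not reported here by name, and counts over lists include them. Same-numbered samples were not paired by the labels. Alternatives changed scaling, pseudocount, filter, model, threshold and samples.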

Additional observations from a re-analysis of the deposited data

How the results depend on the processing

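Scaling by library size, upper quartile or TMM, a pseudocount of 0.1 and no filter each kept the 4 counts of called and parted genes within 1.5 times. So did no variance trend, limma-voom on recovered fragments and an adjusted p under 0.01 for the 2 counts of called genes, the parted genes being defined without these settings. A filter at 5 FPKM left 3777 genes lower and 1380 parted fresh-high genes, since fewer genes were tested. Without group means, 3398 genes were higher and 3506 lower, the spread between groups then counting as error, and named genes that had not parted lost their call, Gstp1, Hsph1, Thy1, Uchl1, Eif2s3y and those given as lost beside their lists. A log2 difference beyond 1 left 1680 and 2251, and a gap of at least 1 left 274 and 441. Leaving out a whole group parted more genes, to an extent that depended on the group. The counts were 4604 and 4418 without A-iSCs, 4106 and 4251 without P56-NPCs, 4115 and 4210 without P0-NPCs, and 2987 and 2854 without ASTs. Leaving out 1 sample gave 5960 to 6580 genes higher, 6197 to 6677 lower, 2168 to 2564 parted cultured-high and 2287 to 2715 parted fresh-high, the highest 4 all without A-iSC replicate 3.

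Whether the replicate number pairs samples cannot be decided from 3 samples a group. After the group means were removed, 3 of 18 same-numbered pairs correlated above 0.1 (-0.378 to 0.427). The pairs of ASTs with A-iSCs were at -0.378, 0.335 and 0.427 for replicates 1, 2 and 3. With a replicate block 6192 genes were higher and 6357 lower. Of the genes named, only Uchl1 lost its call under the block (adjusted p = 0.0535).

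Of 3699 combinations of a named gene with an alternative, 3556 kept direction and call, 97 lost the call, 8 gained it and 38 turned direction, and 107 of 143 genes kept both throughout. Those that turned were genes that had not parted, nearly all when a whole group was left out, and the cause was not tested. Their log2 differences follow. Without ASTs they were -0.56 for Ccn3, -0.071 for Gaa, 0.51 for Malat1, 0.11 for Npc1, -0.038 for Ogn, 0.26 for Pdk1, -0.19 for Rrm2, -0.53 for Srf and -0.92 for Thy1. Without A-iSCs they were -0.13 for C1qa, -0.97 for C1ql1, 0.55 for Col1a2, 1.04 for Cxcl12, 0.081 for Hk1 and 0.062 for Ptk2. Without P56-NPCs they were -0.42 for Ccn3, 1.47 for Csrp1, -0.65 for Foxc1, 0.35 for Gstp1, 1.5 for Il33, 0.76 for Lims2, 0.67 for Npc1 and -0.56 for Uchl1. Without P0-NPCs they were -0.11 for Aldh1l1, -0.24 for Aqp4, 0.44 for Col1a2, 0.96 for Col3a1, 0.94 for Cxcl12, -0.48 for Gaa, 0.75 for Postn, -0.39 for S100a13, -0.062 for Srf and -0.82 for Thy1. With limma-voom Postn was at 0.074, and Gaa without single samples ran from -0.017 to 0.055.

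Culture, region, age and cell make-up cannot be told apart in this design, and sums over 3 samples a group say nothing of single cells. Levels under 0.103 to 0.187 FPKM for a transcript of 1 kilobase were within 3 fragments of 0.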

Other observations

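The following genes were picked after their values were seen, mainly because 1 side was listed at 0, and are given as values with no explanation. Crct1, Sprr1a and Ivl, which belong to the cornified envelope of skin cells, were at 0 in all 6 fresh samples, and no list of genes of that structure was tested. Crct1 was at 109, 147 and 109.5 FPKM in ASTs and at 2.38, 1.81 and 0.895 FPKM in A-iSCs, at least 332-fold higher in the cultured mean than a floor of 3 fragments per fresh sample. Sprr1a, a small proline-rich protein that injured neurons also make, had the opposite order of the cultures, with 2.81, 3.24 and 3.07 FPKM in ASTs and 15.8, 13.3 and 4.58 FPKM in A-iSCs (at least 39.0-fold). Ivl, or involucrin, was at 2.83 to 2.95 FPKM in ASTs and at 0.131 to 0.645 FPKM in A-iSCs (at least 21.0-fold).

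In the opposite direction, the neutrophil genes S100a9 and Ngp were at 0 in all 6 cultured samples. S100a9 was at 3.31, 5.13 and 3.49 FPKM in P56-NPCs and 3.85, 3.75 and 9.25 FPKM in P0-NPCs, at least 17.2-fold above the same floor, and Ngp was at 0.429 to 2.58 FPKM in fresh cells (at least 8.81-fold). Like the globins, both are genes of blood cells.

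Xist, the RNA of the inactive X chromosome in females, was low but parted, at 0.339, 0.401 and 0.252 FPKM in ASTs and at 0.865 FPKM or more in A-iSCs, beside 0.00642 to 0.0402 FPKM in fresh cells. The Y-linked gene Ddx3y was present in every sample, at 9.78 to 16.2 FPKM in culture and 14.4 to 16.4 FPKM in fresh cells, and Eif2s3y was at 13.1 to 19.8 FPKM and 10.5 to 18.4 FPKM. The sex of the mice was not given in the sources used here.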
